A study of Homo sapiens with 6 samples.

Results

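The genes described here are the G1 cyclins, their kinase partners and the cyclin G pair: CCND1, CCND2, CCND3, CCNE1, CCNE2, CCNG1, CCNG2, CDK2, CDK4 and CDK6. They were taken as all probes of the bead array that the platform annotation assigns to these 10 gene symbols, which gave 17 of 48803 probes, for 10 of the 18665 genes the annotation names. RNA came from A549, an established human lung adenocarcinoma cell line, and was hybridised to Illumina Human-6 bead arrays, 6 in all. The control group had 3 arrays, and 3 more held RNA of A549 cells treated with DAMTC at 160 µg/ml for 24 h. DAMTC is a compound named by its code in the labels, which state no vehicle for the controls and no genetic change in either group.

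Progression through G1 rests on D cyclins, which bind CDK4 or CDK6, and then on E cyclins, which bind CDK2. Both kinds of complex phosphorylate the retinoblastoma protein, which releases E2F factors and the genes of S phase. The cyclin G proteins are named for sequence likeness and work differently: CCNG2 is a target of FOXO factors, and both bind the phosphatase PP2A. CCNG2 is mostly found in cells that leave the cycle. The INK4 and CIP/KIP proteins inhibit the kinases.

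Promoter windows are shown for both cyclin G genes, for CCNE1, the G1 cyclin with a pair of called probes, and for CDK4, whose DAMTC arrays all lay below its control arrays. They are RefSeq windows of GRCh38.p14, from 250 bases before the annotated transcription start to 50 bases after it, written 5′ to 3′ on the strand of the gene. Capitals mark matches, on either strand, to an E-box (CACGTG), a GC box (GGGCGG) or a CCAAT box (CCAAT). CCNG2 lies at chr4:77156957-77157256 on the plus strand, and CCNG1 at chr5:163437321-163437620 on the plus strand, where the annotation has 2 starts and the first is shown. CCNE1 lies at chr19:29811741-29812040 on the plus strand and CDK4 at chr12:57752261-57752560 on the minus strand.
CCNG2: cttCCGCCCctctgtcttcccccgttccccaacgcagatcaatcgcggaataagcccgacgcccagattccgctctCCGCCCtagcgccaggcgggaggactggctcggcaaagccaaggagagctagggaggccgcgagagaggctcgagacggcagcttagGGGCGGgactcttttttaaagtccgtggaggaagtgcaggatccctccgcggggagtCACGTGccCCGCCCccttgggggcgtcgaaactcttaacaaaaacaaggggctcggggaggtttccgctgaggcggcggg
CCNG1: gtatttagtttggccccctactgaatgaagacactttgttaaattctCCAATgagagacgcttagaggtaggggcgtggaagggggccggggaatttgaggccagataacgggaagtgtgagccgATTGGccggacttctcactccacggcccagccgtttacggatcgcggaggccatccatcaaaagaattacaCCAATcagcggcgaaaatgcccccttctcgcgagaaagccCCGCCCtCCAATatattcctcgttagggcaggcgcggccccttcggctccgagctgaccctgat
CCNE1: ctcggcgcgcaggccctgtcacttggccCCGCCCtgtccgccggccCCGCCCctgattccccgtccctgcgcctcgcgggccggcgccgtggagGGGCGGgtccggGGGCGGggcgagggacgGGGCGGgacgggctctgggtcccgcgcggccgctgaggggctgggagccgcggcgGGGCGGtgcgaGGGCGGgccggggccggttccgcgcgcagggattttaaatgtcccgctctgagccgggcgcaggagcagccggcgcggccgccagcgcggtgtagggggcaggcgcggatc
CDK4: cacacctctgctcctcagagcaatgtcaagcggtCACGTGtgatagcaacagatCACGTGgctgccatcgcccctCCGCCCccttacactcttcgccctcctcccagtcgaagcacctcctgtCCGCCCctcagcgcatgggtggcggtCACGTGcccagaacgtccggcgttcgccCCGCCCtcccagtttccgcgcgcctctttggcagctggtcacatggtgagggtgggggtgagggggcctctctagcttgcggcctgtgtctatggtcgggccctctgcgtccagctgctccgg
The CCNG2 window held 1 E-box, which began 30 bases before the start, and 4 GC boxes. The CCNG1 window held 4 CCAAT boxes and 1 GC box, the CCNE1 window 7 GC boxes, and the CDK4 window 3 E-boxes and 3 GC boxes. No match overlapped another in these windows. Of 35116 promoters in the same table, 7.26% held an E-box, 45% a GC box and 34.6% a CCAAT box. The E2F motifs TTTCCCGC, TTTGGCGC, TTTGCCGC and TTTCGCGC, the FOXO motif GTAAACA and the TATA box TATAAA, on either strand, had no match in the 4 windows shown. Across all promoters 3.31% held one of the E2F motifs, 3.42% the FOXO motif and 11.5% the TATA box. A match to these letters is a description of the window and not a binding site.

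The arrays detected between 16329 and 17835 probes each at a detection p under 0.05, with a mean bead intensity between 528 and 673. A probe was tested if detected on at least 3 of the 6 arrays, which left 17009 probes. The control arrays took the first positions of 1 BeadChip and the DAMTC arrays the last, so treatment and position on the chip cannot be told apart. The labels call the triplicates biological and name no separate cultures; the p-values therefore cover only array-to-array spread, which may be technical. Of the 10 epithelial and A549 markers, 8 had a tested probe, and AKR1C1 and SFTPB were detected on no array. Of the blood and endothelial markers, PTPRC, CD3E, HBB, VWF and CDH5 were detected on no array, while PECAM1 and CD14 were detected on all 6. Among the fibroblast and muscle markers, COL1A2, COL3A1, DES, LUM and PDGFRB were detected on no array, while ACTA2 was detected on all 6. COL1A1 and DCN were detected on at least 1 array and not often enough to be tested.

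With DAMTC, CCNG2, CCNE1, CCND2 and a CCNG1 probe rose, and no probe of the 10 genes fell past the threshold. Of the 17 probes, 13 were tested, in 9 genes, and CCNE2 had none. At a Benjamini-Hochberg adjusted p under 0.05 in limma, over all 17009 tested probes, 6 of the 13 were higher with DAMTC, against a background in which 11.7% of all probes were called higher. The count of lower calls was 0, with 11.6% of all probes called lower. The genes were chosen with earlier results of these data known, so these shares are no test of an excess. Before adjustment, 10 of the 13 had a p under 0.05, as did 36.4% of all tested probes. One of the 6 calls, CCND2, was detected only on DAMTC arrays and could pass the filter only by being high there. Among the 12 tested probes detected on all 6 arrays, 5 were called, against 23.7% of such probes in all. The median log2 difference was 0.87 over the 13 probes and -0.01 over all tested probes.

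The values of the 3 arrays of each group did not overlap for 9 of the 13 tested probes, 7 with DAMTC higher and 2 with DAMTC lower, where 40.1% of all tested probes lay apart, 20.0% with DAMTC higher and 20.1% with DAMTC lower. Reference genes, taken from a list of commonly used ones, moved in the same direction as the cyclins: 7 of their 15 tested probes were called higher (46.7%), and their median log2 difference was 0.83. GAPDH, a glycolytic enzyme often used as a reference, was higher at all 3 probes, by 0.89 to 0.91. Without DAMTC replicates 1, 2 or 3 the reference rises came to 2, 2 and 1. No GAPDH probe was called without one of these arrays or without control replicate 2. One of the GAPDH probes, ILMN_1802252, lost its call in each of the 6 fits that left out an array. TBP rose by 1.24 (adjusted p = 0.00713) and was called in all 6 of these fits. B2M rose by 1.05 (0.00993), lost only without DAMTC replicate 3, and by 0.97 (0.022) at another probe, called in 2 of the 6. SDHA rose by 1.02 (0.0145), lost without DAMTC replicate 1, 2 or 3, and differed by 0.41 (0.297) at another probe. The 3 probes of ACTB, which encodes beta-actin, differed by 0.78, 0.11 and 0.15, none past the threshold. The part of this shift in the cyclin results was not tested. In RNA of whole cultures, a change in the number of cells of a kind and a change of RNA per cell cannot be told apart.

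**Figure D1:**
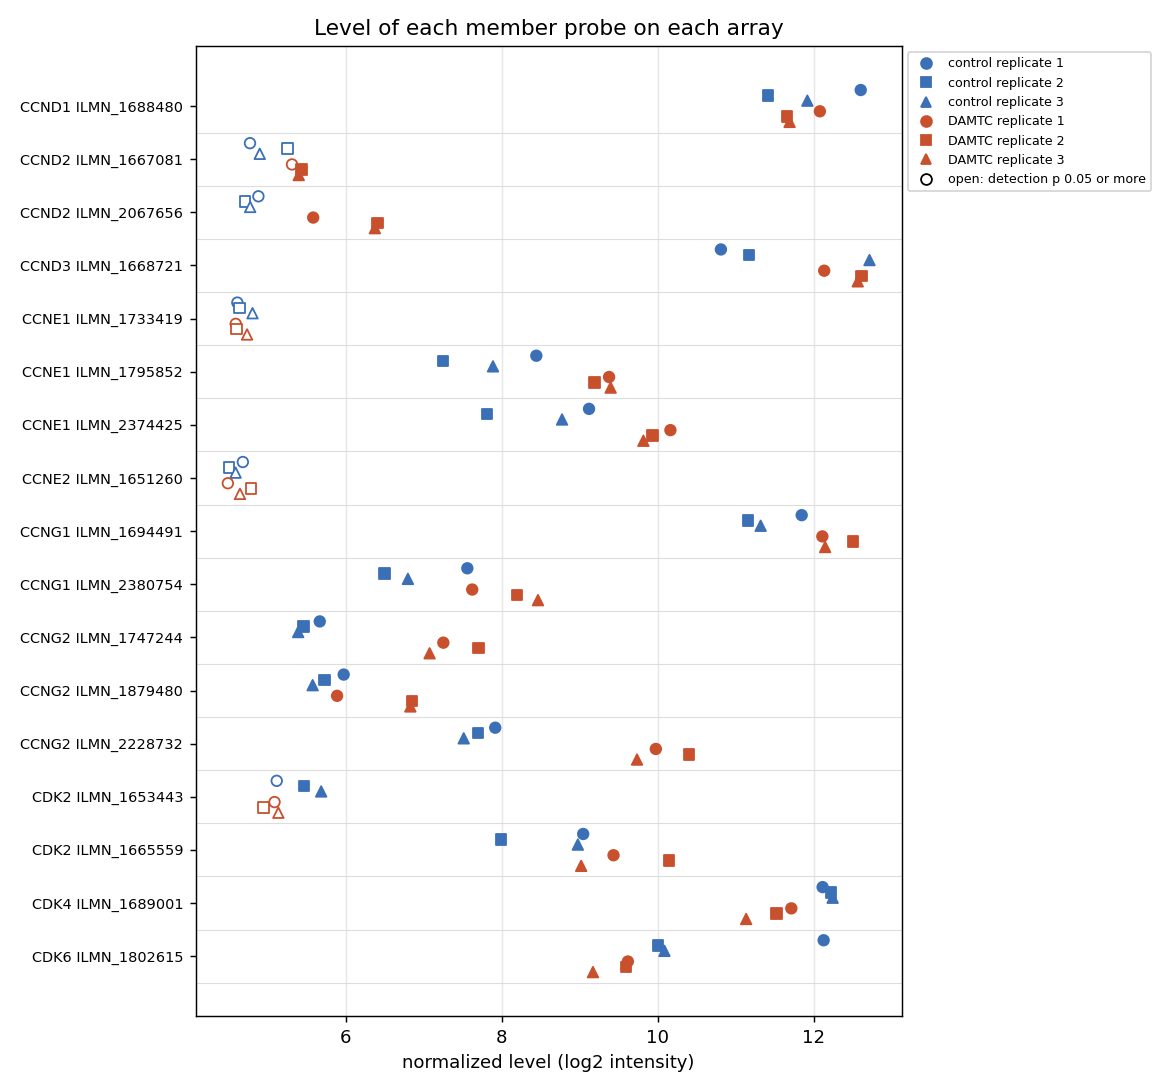
Normalized log2 intensity of each of the 17 probes on each of the 6 arrays, with control arrays in blue, DAMTC arrays in red and open symbols where the probe was not detected (p 0.05 or more). The CCNG2 probes ILMN_2228732 and ILMN_1747244 rise from 7.71 to 10.04 and from 5.51 to 7.34 on average, while CCNE2 and a CCNE1 probe stay between 4.49 and 4.81 on every array.

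CCNG2, the FOXO-regulated cyclin G, had the largest difference among the 13 tested probes. At ILMN_2228732 its log2 level was 7.92, 7.70 and 7.51 on the control arrays and 9.98, 10.40 and 9.74 on the DAMTC arrays. Every DAMTC array lay above every control array. The means were 7.71 ± 0.20 and 10.04 ± 0.34 (SD, n = 3 each), a rise of 2.33 ± 0.26 (SE; 95% interval 1.73 to 2.93), or 5.02-fold, with an adjusted p of 0.000674 in limma. In the bead table itself, before correction, intensities were 376, 358 and 351 in control and 948, 1453 and 905 with DAMTC.

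A second CCNG2 probe, ILMN_1747244, read the same order of arrays. Its levels were 5.67, 5.46 and 5.39 in control and 7.25, 7.70 and 7.08 with DAMTC, again without overlap. It rose by 1.84 ± 0.25 (95% interval 1.26 to 2.42), or 3.58-fold, with an adjusted p of 0.00156. Its difference was 0.74 without background correction, and it stayed past the threshold there. Over the 6 arrays the 2 probes correlated at r = 0.999, as a description only. The third CCNG2 probe, ILMN_1879480, read 5.97, 5.73 and 5.58 in control and 5.89, 6.85 and 6.83 with DAMTC. Its groups overlapped through DAMTC replicate 1, and its difference of 0.76 ± 0.31 had an adjusted p of 0.112. Without DAMTC replicate 1 the difference was 1.10 with an adjusted p of 0.0430. This probe is annotated to a cDNA accession that was not among those in the RefSeq gene table, unlike the other 16 probes.

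CCNG1, the other member of the pair, was also higher with DAMTC, past the threshold at 1 of its 2 probes. At ILMN_1694491 its log2 level was 11.85, 11.16 and 11.32 in control and 12.11, 12.51 and 12.15 with DAMTC. The groups lay apart, with control replicate 1 the nearest to the DAMTC arrays. The difference was 0.81 ± 0.27 (95% interval 0.20 to 1.42), or 1.76-fold, and its adjusted p of 0.0590 missed the threshold. Without control replicate 1 it was 1.03, with an adjusted p of 0.0122.

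The second CCNG1 probe, ILMN_2380754, did pass. It read 7.56, 6.50 and 6.80 in control and 7.62, 8.20 and 8.47 with DAMTC, with control replicate 1 and DAMTC replicate 1 close together. It rose by 1.14 ± 0.34 (95% interval 0.36 to 1.93), or 2.21-fold, with an adjusted p of 0.0419. The call was lost without control replicate 2 (adjusted p = 0.115), control replicate 3 (0.119), DAMTC replicate 2 (0.128) or DAMTC replicate 3 (0.157). The 2 CCNG1 probes correlated at r = 0.927 over the 6 arrays.

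The cyclin G genes were also set against each other within each array. The log2 level of CCNG1 (ILMN_1694491) minus that of CCNG2 (ILMN_2228732) was 3.93, 3.46 and 3.81 in control and 2.13, 2.10 and 2.41 with DAMTC. These offsets hold the binding of the probes as well as the transcripts, so only their change was read. It was -1.52, without overlap, so CCNG2 gained on CCNG1 on every DAMTC array. By exact permutation of the arrays, two-sided, p was 0.1, which 3 arrays against 3 cannot go below, and 0.167 after adjustment over the 5 pairs compared.

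**Figure D2:**
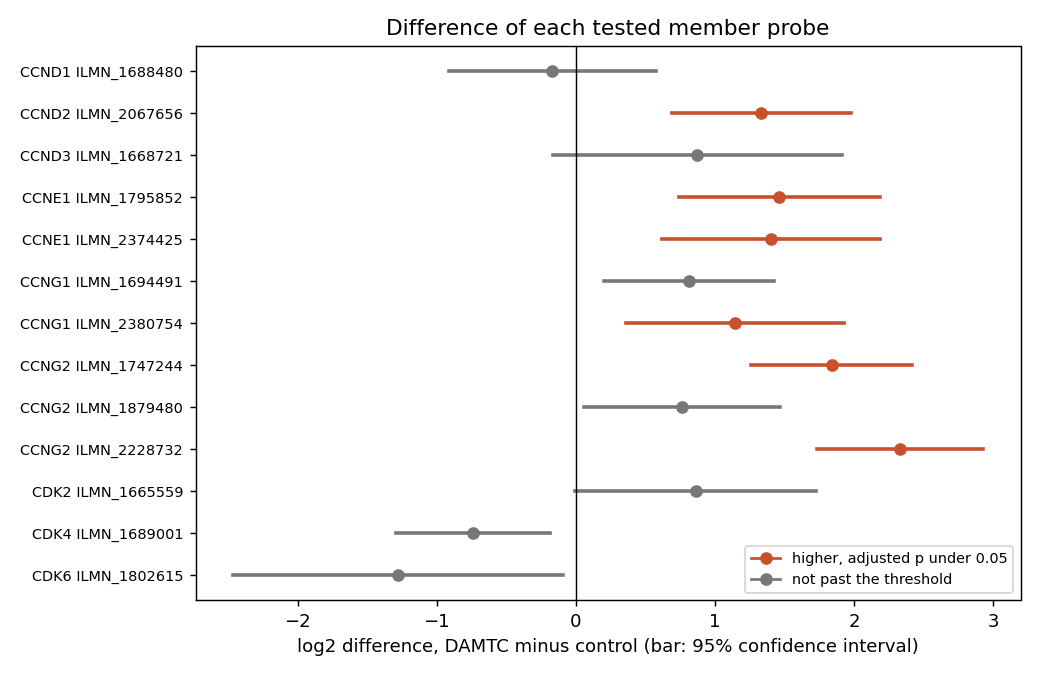
Log2 difference, DAMTC minus control, of each of the 13 tested probes with its 95% confidence interval; red marks an adjusted p under 0.05. The 6 red probes belong to CCND2, CCNE1, CCNG1 and CCNG2 and lie between 1.14 and 2.33, and CDK4 and CDK6 lie at -0.74 and -1.28.

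CCNE1, the cyclin that activates CDK2 at the end of G1, rose at both probes that detected it. At ILMN_1795852 its log2 level was 8.44, 7.25 and 7.89 in control and 9.38, 9.19 and 9.40 with DAMTC. All DAMTC arrays lay above all control arrays, and the control arrays spread more widely (7.86 ± 0.60 against 9.32 ± 0.11, SD, n = 3 each). The rise was 1.46 ± 0.32 (95% interval 0.74 to 2.19), or 2.76-fold, with an adjusted p of 0.0116. Without DAMTC replicate 3 it was 1.42, with an adjusted p of 0.0521.

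ILMN_2374425, the second CCNE1 probe, read 9.12, 7.81 and 8.77 in control and 10.16, 9.93 and 9.82 with DAMTC. Control replicate 2 was the lowest array at both probes, and the groups did not overlap. The rise was 1.40 ± 0.35 (95% interval 0.62 to 2.19), or 2.64-fold, with an adjusted p of 0.0193. Leaving out DAMTC replicate 1, 2 or 3 brought the adjusted p to 0.0753, 0.0635 and 0.0581. The 2 probes correlated at r = 0.983. A further CCNE1 probe, ILMN_1733419, was detected on no array, with levels between 4.59 and 4.81.

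CCNE2, the other E cyclin, had a single probe, ILMN_1651260, which was detected on no array. Its levels, between 4.49 and 4.78, lay below the dimmest detected probe of any array (5.25), so it was not tested and the arrays set only an upper bound on it. The change of CCNE1 could therefore not be compared with that of CCNE2.

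Among the D cyclins, which carry mitogen signals to CDK4 and CDK6, only CCND2 was called. CCND1, the D cyclin most often studied in epithelial tumours, had bead intensities of 5792, 2997 and 4693 in control and 3981, 3347 and 3237 with DAMTC. After normalization its log2 level was 12.60, 11.41 and 11.92 in control and 12.08, 11.66 and 11.69 with DAMTC. The DAMTC arrays lay within the range of the control arrays. The difference was -0.17 ± 0.33 (95% interval -0.91 to 0.57; adjusted p = 0.758), and without control replicate 1 it turned to 0.14. The interval, which reached 0.91 down and 0.57 up on the log2 scale, covers only array-to-array spread. It sets no limit on the change of CCND1 in the cells.

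CCND2, another D cyclin, was not detected on any control array at ILMN_2067656 (4.88, 4.71 and 4.78) and was detected on all 3 DAMTC arrays (5.58, 6.41 and 6.37). The fitted difference was 1.33 ± 0.28 with an adjusted p of 0.0102, and 0.47 without background correction (0.0355). Because the control level is only a bound, the DAMTC mean was also set against the lowest signal among detected probes of each control array. It was 1.80-fold above that, a ratio of means without its error and no least value of the rise. The 95% interval of the fitted difference ran from 0.69 to 1.97. The probe passed the filter only through its DAMTC arrays, and the 3 fits without a control array kept all of these. The call held there, which is therefore no check of it. Without any DAMTC array the probe was not detected often enough to be tested. The other CCND2 probe, ILMN_1667081, read 4.77, 5.26 and 4.90 in control and 5.31, 5.44 and 5.40 with DAMTC, was detected on 2 DAMTC arrays only and was not tested.

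CCND3 read 10.81, 11.17 and 12.72 on the control arrays and 12.14, 12.62 and 12.57 on the DAMTC arrays at ILMN_1668721. Control replicate 3 was the highest of the 6 arrays, so the groups overlapped. The difference was 0.87 ± 0.46 (95% interval -0.17 to 1.91), with an adjusted p of 0.209. Without control replicate 3 it was 1.45, with an adjusted p of 0.0173, so the call for CCND3 turned on 1 array.

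Within arrays, the change of CCND1 against CCND3 was -1.04, with overlap (exact two-sided permutation p = 0.2, adjusted 0.25). That of CCND1 against CCND2 was -1.50, without overlap (exact p = 0.1, adjusted 0.167), and -0.63 without background correction, since CCND2 lay near the background. Neither pair passed the threshold.

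CDK4, the main D cyclin kinase of most tissues, had an even control level and was lower on every DAMTC array. Its log2 level at ILMN_1689001 was 12.12, 12.23 and 12.24 in control and 11.71, 11.52 and 11.14 with DAMTC. The difference was -0.74 ± 0.24 (95% interval -1.29 to -0.18), or 1.67-fold, with an adjusted p of 0.0592. It missed the threshold here and passed it in 7 of 21 alternatives, among them median scaling (adjusted p = 0.0294), no background correction (0.0273), array weights (0.00868) and leaving out control replicate 1 (0.0428). Across the 21 alternatives its adjusted p lay between 0.00868 and 0.234, and its difference stayed negative.

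CDK6, the other D cyclin kinase, read 12.13, 10.00 and 10.09 in control and 9.62, 9.60 and 9.17 with DAMTC at ILMN_1802615. All DAMTC arrays lay below all control arrays, and control replicate 1 stood far above the other control arrays. The difference was -1.28 ± 0.52 (95% interval -2.46 to -0.09; adjusted p = 0.112). Without control replicate 1 it was -0.59, with an adjusted p of 0.101, and with median scaling it was -1.52 with an adjusted p of 0.0440.

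CDK2, the partner of the E cyclins, differed in the other direction from CDK4. ILMN_1665559 read 9.05, 7.99 and 8.98 in control and 9.43, 10.14 and 9.02 with DAMTC. DAMTC replicate 3 lay within the control range, and the difference of 0.86 ± 0.38 (95% interval -0.01 to 1.73) had an adjusted p of 0.141. A second CDK2 probe, ILMN_1653443, read 5.12, 5.47 and 5.69 in control and 5.09, 4.95 and 5.14 with DAMTC, was detected on 2 control arrays only and was not tested.

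Within each array, the level of CDK2 minus that of CDK4 was -3.07, -4.23 and -3.27 in control and -2.28, -1.38 and -2.12 with DAMTC. The offset shifted by 1.60 towards CDK2, and the groups did not overlap (exact two-sided permutation p = 0.1, the smallest possible; adjusted 0.167). CDK4 against CDK6 changed by 0.54 (exact p = 1), and by -0.20 without control replicate 1, whose offset of -0.01 stood apart from 2.22 and 2.16 on the other control arrays. The DAMTC arrays read 2.10, 1.93 and 1.96 for that pair.

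**Figure D3:**
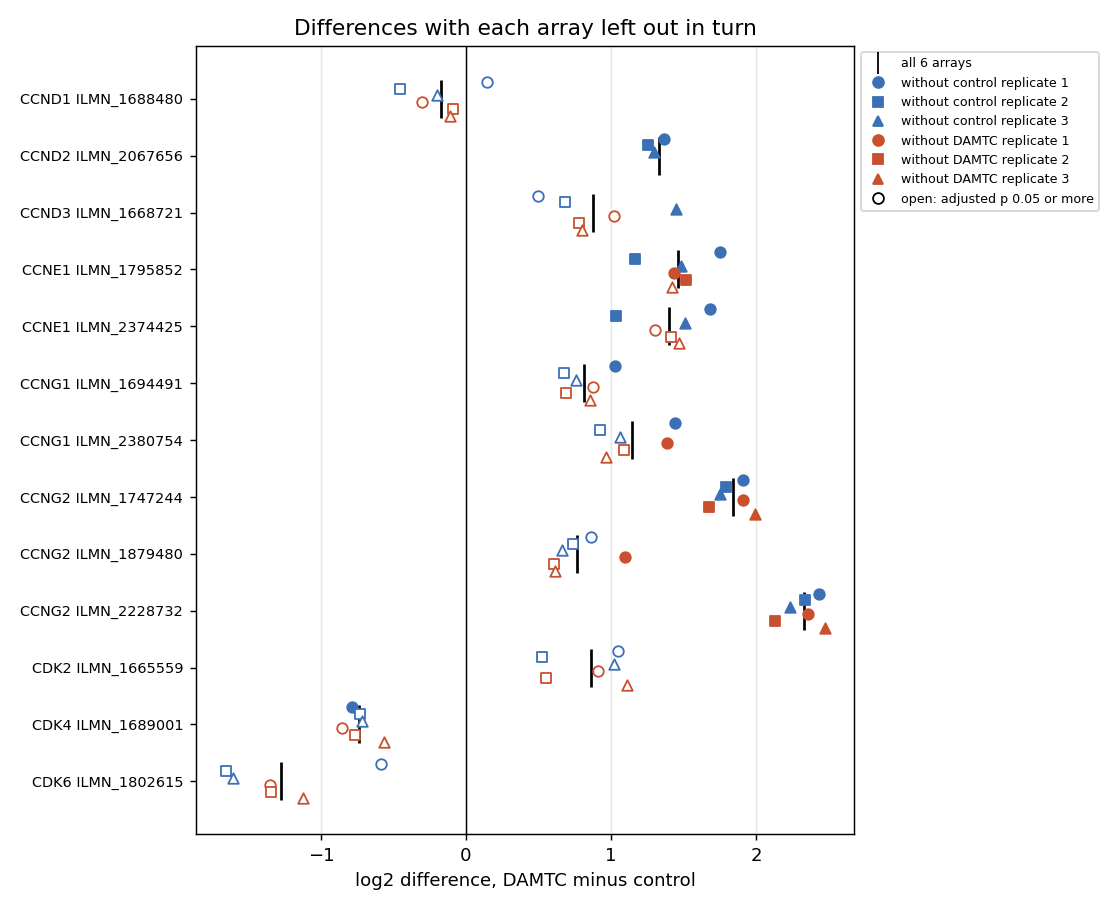
Log2 difference of each tested probe with all 6 arrays (black bar) and with each array left out in turn; open symbols mark an adjusted p of 0.05 or more. CCNG2 at ILMN_2228732 stays between 2.13 and 2.47, and CCND1 changes sign without control replicate 1.

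Error was measured both within an array, over beads, and between arrays. Each value of the 17 probes rested on 20 to 59 beads, and the bead standard error was 2.54% to 7.82% of the intensity in the tested probes, with a median of 3.93%. The SD over 3 arrays of a group had a median of 0.33 and reached 1.20 on the log2 scale, for CDK6 in control. The probes that followed CCNG2 (ILMN_2228732) most closely over the 6 arrays were those of ZSCAN9 (r = 0.999), C16orf87 (r = 0.998) and CLEC4A (r = 0.997), with differences of 2.13, 1.84 and 2.43. Of the 13759 probes compared, 696 had r above 0.95, a cutoff below the r of the 3 probes named. All probes share the same 2 groups of arrays, so the likeness is a description only.

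The inhibitors of the G1 kinases held the largest difference of the related lists. CDKN2D, which encodes the INK4 protein p19 that binds CDK4 and CDK6, read 5.35, 5.57 and 5.62 in control and 10.87, 10.27 and 10.39 with DAMTC at ILMN_1748883. It rose by 4.996 ± 0.25, or 31.9-fold (adjusted p = 3.46e-05), and was called in all 6 fits that left out an array. A second CDKN2D probe was detected on no array. CDKN1C, which encodes the CIP/KIP protein p57, read 5.002, 5.16 and 4.92 in control and 7.47, 6.37 and 6.99 with DAMTC. It was detected on DAMTC arrays only, so it passed the filter only by being high there and could not be tested without a DAMTC array. Its DAMTC mean was 3.19-fold above the lowest signal among detected probes of the control arrays, a ratio of means without its error. The fitted limma difference was 1.92 ± 0.31 (adjusted p = 0.00294).

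The other inhibitors differed less. CDKN1B, the CIP/KIP inhibitor p27, fell by 0.96 ± 0.27 at ILMN_2196347 (adjusted p = 0.0338), a call kept only without control replicate 1 when arrays were left out, while its other probe differed by -0.43 (adjusted p = 0.274). CDKN1A, the CIP/KIP inhibitor p21, differed by 0.38 ± 0.32 (adjusted p = 0.457) and 0.36 (0.502). The single detected CDKN2B probe differed by 0.20 ± 0.29 (adjusted p = 0.672), and CDKN2A was detected on 1 of 6 arrays and not tested. In all, 2 of 7 tested inhibitor probes were higher, 1 was lower and 4 did not pass (42.9% called, against 23.4% of all probes), with a median of 0.36. Without DAMTC replicate 1, 2 or 3 the calls came to 1 higher and 0 lower, with CDKN1C not tested there, and the median to 0.16, 0.09 and 0.34. CDKN2C was not analysed here.

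**Figure D4:**
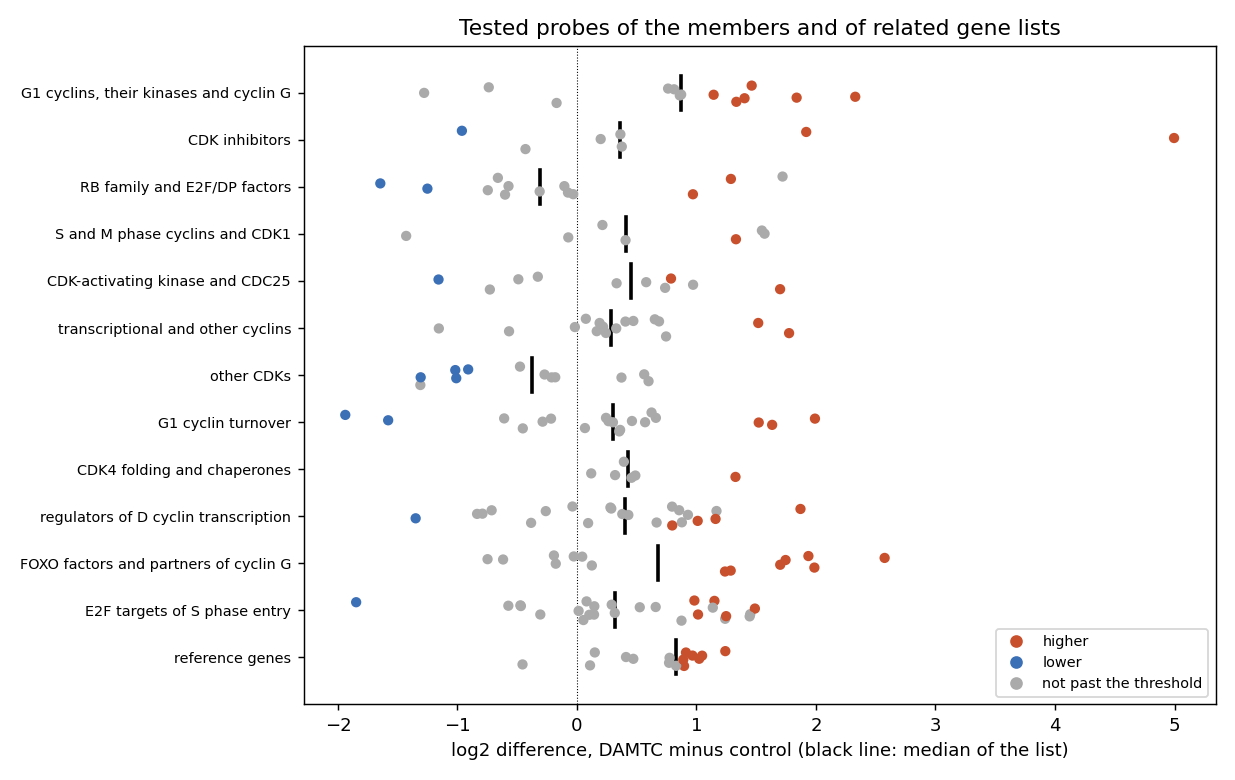
Log2 difference of every tested probe of the G1 cyclins, their kinases and cyclin G, of 11 related gene lists and of reference genes; red and blue mark calls, grey the rest, and black lines the list medians. CDKN2D lies at 4.996, and the medians of the G1 set (0.87) and the reference genes (0.83) are close.

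Downstream, 4 of 13 tested probes of the retinoblastoma and E2F genes were called (30.8%, against 23.4% of all probes), 2 in each direction. RB1 itself read 7.40, 5.62 and 5.34 in control and 6.09, 5.995 and 6.05 with DAMTC, a difference of -0.07 ± 0.48 (adjusted p = 0.932) with control replicate 1 the highest. Without that array the difference turned to 0.56 (adjusted p = 0.0944). E2F5, a repressor-type E2F, fell by 1.64 ± 0.29 (adjusted p = 0.00477) and the activator E2F2 by 1.25 ± 0.35 (0.0308), the second lost without control replicate 3 or any DAMTC array. TFDP2, a dimer partner of E2F proteins, rose by 1.29 ± 0.27 (adjusted p = 0.00935) and by 0.97 at a second probe (0.0236), the latter lost without control replicate 3 or DAMTC replicates 2 or 3. The other 9 probes of the list did not pass, and its median was -0.31. It held 1 rise and 1 fall without control replicate 3, DAMTC replicate 2 or DAMTC replicate 3.

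E2F targets of S phase entry were called at 6 of 25 tested probes (24%), near the 23.4% of all probes. SLBP, which binds histone mRNA, rose by 1.49 ± 0.27 (adjusted p = 0.00531), MCM4, a subunit of the replicative helicase, by 1.25 (0.0394) and the licensing factor CDT1 by 1.15 (0.0422), while CDC7, the kinase that fires origins, fell by 1.85 ± 0.27 (0.00193). The calls of MCM4 (without control replicate 2 or any DAMTC array) and CDT1 (without control replicates 1 or 2 or DAMTC replicates 1 or 2) were lost. Another MCM4 probe differed by 1.45 and did not pass (adjusted p = 0.0603). Another SLBP probe rose by 1.01 (adjusted p = 0.0210), a call kept only without control replicate 1 when arrays were left out. Of the 25, 5 rose, 1 fell and 19 did not pass. The rises came to 2 with median scaling or without control replicate 2 or DAMTC replicates 1 or 3, and to 1 without DAMTC replicate 2. The summed log2 level of the list was 15.04, 14.18 and 15.28 in control and 15.24, 15.42 and 15.18 with DAMTC, so control replicate 2 was low. Of the S and M phase cyclins and CDK1, only CCNA1, a cyclin A best known from germ cells, was called of 7 tested probes (14.3%), with a rise of 1.33 ± 0.25 (adjusted p = 0.00622). Without control replicate 1, 3 probes rose, and without control replicate 2, 1 rose and 1 fell. Their summed level was 13.33, 10.97 and 12.75 in control and 12.60, 13.15 and 12.32 with DAMTC. Control replicate 2, which was lowest there, was also lowest for CCNE1, CCND1, CCNG1 and CDK2. The part of proliferation genes in those values was not tested.

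Factors around cyclin G rose at 7 of 14 tested probes, in 6 genes, against 11.7% of all probes called higher. None was called lower, and the median was 0.68. The list was chosen with earlier results of these data known, so its share of rises is no test of an excess. BCL6, a repressor and FOXO target, read 9.37, 9.59 and 9.87 in control and 12.11, 12.19 and 12.26 with DAMTC, a rise of 2.57 ± 0.24, or 5.96-fold (adjusted p = 0.000327). PPP2R5D, a regulatory subunit of the phosphatase that cyclin G binds, rose by 1.99 ± 0.30 (0.00224) and 1.94 ± 0.25 (0.00111) at 2 probes. FOXO3 rose by 1.75 ± 0.27 (adjusted p = 0.00234) and MDM2, a ubiquitin ligase that binds CCNG1, by 1.70 ± 0.33 (0.00708). These 4 genes were called in all 6 fits that left out an array. The count of rises was 5 with median scaling, with 1 fall beside it, and 4 of the 10 probes detected on all 6 arrays, whose median was 0.08. Leaving out arrays moved the median between 0.61 and 1.42, the highest without control replicate 2.

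Among genes that activate the kinases, CDK7, the CDK-activating kinase, rose by 1.70 ± 0.25 (adjusted p = 0.00208), and its cyclin CCNH by 0.79 ± 0.23 (0.0400), a call kept only without control replicate 1 when arrays were left out. A second CCNH probe differed by 0.33 (adjusted p = 0.367), with overlap. CDC25A, the phosphatase that frees CDK2, was detected on the control arrays only. Its control mean was 1.76-fold above the lowest signal among detected probes of the DAMTC arrays, a ratio of means without its error. Its fitted limma difference was -1.16 ± 0.34 (adjusted p = 0.0361). That call was lost in each of the 3 fits that could test it, those without a DAMTC array, with an adjusted p of at least 0.0960. Of 10 tested probes 2 rose, 1 fell and 7 did not pass (30% called, against 23.4% of all probes). Without control replicate 2 or 3 or any DAMTC array, 1 rose and none fell.

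Genes linked to the turnover of G1 cyclins, a list that also holds USP2 and CKS2, were called at 5 of 19 tested probes (26.3%). This was near the 23.4% of all probes. FBXW7, the F-box protein that targets cyclin E, rose by 1.63 ± 0.25 (adjusted p = 0.00231) at ILMN_1754279 and differed by 0.26 (0.568) at another. FBXO4, an F-box protein of cyclin D1, fell by 1.94 ± 0.28 (adjusted p = 0.00186) and 1.58 ± 0.34 (0.0107). CKS2, a small subunit that binds CDKs, rose by 1.99 ± 0.41 (adjusted p = 0.00909) and 1.52 ± 0.33 (0.0120), the second lost without DAMTC replicate 3. In all, 3 probes of the list rose, 2 fell and 14 did not pass. Of the CDK4 chaperone list, FKBP5 was the single call in 6 tested probes (16.7%, against 23.4% of all probes). It rose by 1.33 ± 0.29 (adjusted p = 0.0121), a call lost without DAMTC replicate 2. Without control replicate 1 the list held 2 calls.

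Regulators of D cyclin transcription were called at 5 of 22 tested probes (22.7%, where 23.4% of all probes were called), 4 of them higher. The rises came to 10 without control replicate 1, to 1 without DAMTC replicate 2, to 2 without DAMTC replicate 3 and to 2 with median scaling, where 3 fell; without control replicate 2, 3 rose and 3 fell. FOSL1, an AP-1 subunit, rose by 1.87 ± 0.28 (adjusted p = 0.00204). STAT3, which acts on D cyclin genes after cytokines, rose at its 3 called probes, by 1.16, 1.01 and 0.80. All 3 STAT3 calls were lost without DAMTC replicate 2, the last 2 also without DAMTC replicate 3, and the last without any array other than control replicate 1. TCF7L2, the Wnt pathway factor, fell by 1.35 ± 0.26 (adjusted p = 0.00658). MYC differed by -0.84 and -0.79 at its 2 probes, neither past the threshold.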

How the data were processed

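Arrays were assigned to groups from their sample titles. The deposited bead table holds linear mean intensity values per probe and array, per the file headers, and these had no background subtraction or scaling between arrays. Other deposited columns hold a detection p-value, which moves in steps of 1 in 759 negative controls, a count of beads, and the standard error of the bead signal. The submitters' processing notes name BeadStudio, and no version of it is stated. Intensity values of the deposited series matrix lay on a straight line against the bead intensities (largest residual 0.0107), with an offset of 118.949 to 140.576 taken away and a scaling to a like array mean. Their column medians were 10.94, 9.34 and 8.59 for control and 8.99, 8.70 and 9.17 for DAMTC, so scale, centring and direction are known, and the matrix was an alternative input.

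The nec function of limma 3.58.1 (R 4.3.3) corrected the background from the detection p-values with an offset of 16, and quantile normalization and log2 transformation followed. Each of 17009 probes was tested by itself with lmFit and eBayes on the 6 arrays, checked on simulated data, with Benjamini-Hochberg adjustment over all of them. Symbols came from the platform annotation: 27578 probes had 1 symbol, 13 several and 21212 were not listed. 1 probe ID on more than 1 row was averaged. All 17 member probes matched the RefSeq gene table by Entrez ID, and 6 of the 10 genes had promoters in the RefSeq table, of which 4 are printed. Promoters of CCND1, CCND2, CCNE2 and CDK2 were not used here. The number of arrays limits the precision.

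The members and gene lists were chosen with earlier results of these data known. Named were all member probes, up to 4 called genes of largest difference in each related list, all kinase inhibitors, RB1, GAPDH and ACTB, and the 3 genes most like the member of largest rise. MYC, TBP, B2M, SDHA and members of the marker lists were named beyond that rule, after their values were seen. Alternatives changed the background correction, normalization, detection filter, probes adjusted over, moderation, weights, block, threshold and arrays.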

Additional observations from a re-analysis of the deposited data

Results flagged for a closer look

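A second probe of CCND2, ILMN_1667081, carried signal outside the tested set. It was detected on 2 of 3 DAMTC arrays and on 0 of 3 control arrays, so it did not reach the 3 arrays the filter asks for. Its difference was 0.41 on the log2 scale. Its DAMTC mean was 1.08-fold above the lowest signal among detected probes of the control arrays, a ratio of means without its error. Untested probes were flagged only if detected more often with DAMTC and with every DAMTC array above every control array. The direction and the gap between groups therefore follow from that rule. Its detection p was 0.0514 on control replicate 2 and 0.0553 on DAMTC replicate 1, so the counts of detection turned on small differences. With all 48803 probes tested its adjusted p was 0.214.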

How the results depend on the processing

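Of all tested probes, 3973 were called. The count was 6848 with array weights, 2324 with the replicate block, 1872 at an adjusted p under 0.01, and 2154 to 5116 with an array left out, with the highest count without control replicate 1 and the lowest without DAMTC replicate 3. The 6 calls among the 13 member probes became 3 with 1 probe a gene (9 probes tested) and 2 at an adjusted p under 0.01, and ranged from 2 to 8 with an array left out, with 3 without DAMTC replicate 2 and 2 without DAMTC replicate 3. They were 5 with the replicate block, which moved CCNG1 ILMN_2380754 to an adjusted p of 0.108 and changed the call of no other member probe. Same-numbered arrays did not deviate together (r between -0.433 and -0.196). Unlike-numbered arrays had r between -0.283 and 0.501, the highest for control replicate 1 and DAMTC replicate 2. Deviations from a mean of 3 arrays are tied to each other, so these values cannot settle whether the samples were paired. Median scaling gave 5 higher and 2 lower members, the deposited values 4 higher, and array weights 8 higher and 1 lower. Of all calls, 50.2% were higher in the reported fit, 30.6% with median scaling, where the median probe moved by -0.205, and 36.9% with the deposited values, where it moved by -0.15. Relative to those medians no member changed sign. The difference of CCND1 reversed to 0.14, and that of CDK4 minus CDK6 to -0.20, both without control replicate 1; over the arrays left out they ranged from -0.456 to 0.14 and from -0.20 to 0.92. CCNG2 ILMN_2228732 was called in all 21 alternatives, with differences from 1.78 to 2.47. CCNE2, a CCNE1 probe, a CCND2 probe and a CDK2 probe were limited by signal over background. The causes of these shifts were not tested.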

Other observations

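Other cyclins and CDKs, outside the G1 set, differed in their share of calls. Of the tested probes, 12.5% were called for the other cyclins and 33.3% for the other CDKs, against 23.4% of all probes. CCNYL1, a cyclin Y relative, rose by 1.78 ± 0.32 (adjusted p = 0.00482) and 1.52 ± 0.27 (0.00463) at its 2 tested probes and was the only called gene among 16 tested probes of the other cyclins with all 6 arrays. Without control replicate 1 that list held 6 rises and 1 fall. Among 12 tested probes of the other CDKs, 4 fell and none rose, against 11.6% of all probes called lower, with a median of -0.37. The falls came to 1 without DAMTC replicate 1, 2 or 3, to 2 without control replicate 2 or 3, and to 5 beside 1 rise without control replicate 1, and the median lay between -0.72 and -0.14 over these fits. CDK13, a kinase of RNA polymerase II, fell by 1.31 ± 0.23 (adjusted p = 0.00472) and 1.02 ± 0.23 (0.0133), the second lost without any DAMTC array. CDK20 fell by 1.01 ± 0.27 (adjusted p = 0.0272) and 0.91 ± 0.28 (0.0471), and both calls were kept only in 1 of 6 fits that left out an array. CDH1, the epithelial cadherin, fell by 1.64 ± 0.42 (adjusted p = 0.0230). It was the only call among 10 tested probes of the A549 and epithelial markers (10%, against 23.4% of all probes). The call was lost without control replicate 2, control replicate 3 or DAMTC replicate 1. The summed log2 level of those markers was 16.51 to 17.19 in control and 16.46 to 17.04 with DAMTC.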
